A study of Mus musculus with 10 samples.

Results

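The genes described here encode the fast and slow isoforms of sarcomere proteins of skeletal muscle, measured in submandibular salivary glands of the mouse after duct ligation. They are the myosin heavy chains Myh1, Myh2, Myh4 and Myh7, the troponin T genes Tnnt3 and Tnnt1, the troponin I genes Tnni2 and Tnni1, and the troponin C genes Tnnc2 and Tnnc1. They were taken by symbol from a table of FPKM values (fragments per kilobase, relative to library size), with no filter on expression, and make up 10 of its 55291 genes. Of the 10, 6 are isoforms of fast fibres (Myh1, Myh2, Myh4, Tnnt3, Tnni2, Tnnc2) and 4 are isoforms of slow fibres (Myh7, Tnnt1, Tnni1, Tnnc1). The question was which fibre type the muscle transcripts found in ligated glands match.

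The study followed obstructive inflammation of the submandibular gland, brought about by closing the duct through which saliva drains. In the ligated group the duct of the right gland was tied at its proximal and distal ends. In the sham group the skin was opened and the gland was freed, but the duct was not tied. All mice were C57BL/6J aged 8 weeks, glands were taken on day 7, and each group had 5 mice and 5 RNA-seq libraries. The labels give the sex as female, whereas 4 genes of the Y chromosome were read at 0.770 FPKM or more in all 10 libraries, and Xist at 0.0267 FPKM or less.

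Skeletal muscle fibres contract when calcium binds troponin C, which, through troponin I and troponin T, lets myosin reach the actin filament. Fast and slow fibres build the same machine from different genes. Slow fibres use Myh7 with Tnnt1, Tnni1 and Tnnc1, and the fast fibre types use Myh2 (type 2A), Myh1 (type 2X) and Myh4 (type 2B) with Tnnt3, Tnni2 and Tnnc2. Tnnc1 and Myh7 are also genes of the heart. The submandibular gland lies beside muscles of the neck and jaw.

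The 3 fast myosin heavy chain genes lie side by side on chromosome 11 (GRCm38), in the order Myh2 (67171027 to 67197517), Myh1 (67200052 to 67224575) and Myh4 (67238029 to 67260446), all on the plus strand. The gaps between them are 2534 bases and 13453 bases. Upstream of their start sites, all 3 hold the same run of 20 bases. The windows below are shown because these genes were listed at 0 in every sham library and above 0 in every ligated one. The sequences are from RefSeq (GRCm38.p6), plus strand, 5′ to 3′, with the shared run in capitals and 40 bases on either side. The windows are chr11:67199897-67199996 for Myh1, chr11:67170857-67170956 for Myh2 and chr11:67237609-67237708 for Myh4.
Myh1: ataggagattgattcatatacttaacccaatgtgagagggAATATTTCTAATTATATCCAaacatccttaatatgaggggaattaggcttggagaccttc
Myh2: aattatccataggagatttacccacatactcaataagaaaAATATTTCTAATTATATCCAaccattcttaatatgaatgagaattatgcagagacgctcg
Myh4: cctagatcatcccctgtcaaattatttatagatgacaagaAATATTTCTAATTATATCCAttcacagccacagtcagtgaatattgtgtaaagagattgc

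The run begins 165 bases before the RefSeq start of Myh1 (67200102), 130 before that of Myh2 (67171027) and 163 before that of Myh4 (67237812). For Myh1 and Myh4 these starts differ from the GENCODE starts given above. On either strand, it was found in 3 of 27025 mouse promoters of the same length (0.0111%), which are these 3. It was picked out by comparing these promoters, so its rarity is a description of their likeness. The promoter set (250 bases before to 50 after each start) held 8 of the 10 genes, and the run was not in the promoters of Myh7, Tnnt1, Tnni1, Tnnc2 or Tnnc1. Motifs were searched over these whole promoters, so they can lie outside the shorter windows printed above. The letters TATAAA, searched on both strands, were in the promoters of Myh1, Myh2, Myh4 and Tnnt1, and in 14.2% of all promoters. The MEF2 consensus, the motif of a family of muscle transcription factors, was in the promoters of Myh1 and Myh4 and in 3.26% of all promoters. The E-box CANNTG, the motif bound by myogenic factors among many others, was in the promoters of Myh4, Myh7, Tnnt1, Tnni1, Tnnc2 and Tnnc1, and in 72.1% of all promoters.

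The other genes are spread over the genome, with one further pair of neighbours. Tnni2 (chromosome 7, 142441808 to 142444410, plus strand) ends 54425 bases before Tnnt3 (142498836 to 142516009, plus strand). Tnnt1 is on the same chromosome at 4504570 to 4516382 on the minus strand. Myh7 (54970684 to 54994626, minus strand) and Tnnc1 (31208312 to 31211729, plus strand) are on chromosome 14. Tnni1 is on chromosome 1 at 135779434 to 135810989 on the plus strand, and Tnnc2 is on chromosome 2 at 164777161 to 164779967 on the minus strand. Coordinates follow the GENCODE M21 annotation of that build.

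The libraries held 12105738 to 17305591 reads assigned to genes, as worked out from the FPKM values. The tissue label was checked against 9 genes of the submandibular gland, which were above 1 FPKM in at least 5 libraries. All 9 were called lower in ligated glands by limma and by voom, and 4 with no filter. Of these genes Dcpp2 lost its call with no filter, the smaller pseudocount, quantile normalization, the replicate block, or without sham 2, sham 4 or sham 5 (adjusted p 0.0507 to 0.0753), and Mucl2 with no filter and after quantile normalization (adjusted p 0.361 and 0.147). The summed level of the 9 genes was 136400 to 275400 FPKM in sham libraries and 8570 to 66920 FPKM in ligated ones. Some libraries also held transcripts of the parotid gland or of lymph nodes. Amy1, an amylase gene of the parotid, stood at 2682 to 8365 FPKM in sham 1 and ligated 2, 3 and 5, against 4.45 to 28.3 FPKM in the others. Cd79a, a B cell gene, stood at 73.3 to 101.3 FPKM in sham 1 and ligated 1, 2 and 3, against 0.933 FPKM or less in the others. The 5 parotid genes summed to 13680 to 26900 FPKM in sham and 4655 to 45330 FPKM in ligated libraries, with 1 of 3 tested genes called, Car6, which was lower. Its call was lost with no filter and after quantile normalization (limma, adjusted p = 0.127 and 0.0691). Car6 stood at 13450 to 18100 FPKM in sham 2 to 5, the sham libraries low in Amy1, so the sum does not follow Amy1. The 8 lymph node genes summed to 5.19 to 482.9 FPKM and 19.0 to 366.4 FPKM, with 0 of 2 tested genes called by limma (0 at an unadjusted p under 0.05), 0 called by voom, and Ccl21a, a chemokine of lymph nodes, at a log2 difference of 1.77 (limma, adjusted p = 0.151). The 4 fast genes that passed the test, Myh1, Myh4, Tnnt3 and Tnni2, were also called without the parotid-bearing libraries and without the lymph node-bearing ones.

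Genes were tested with limma on log2(FPKM + 1) where they reached 1 FPKM in at least 5 libraries, and called at a Benjamini-Hochberg adjusted p under 0.05 with a log2 difference of at least 1. Of 11856 genes tested, 17.1% were called higher and 1.16% lower in ligated glands. Of the 10 isoform genes, 4 reached the filter, and all 4 were called higher. Their sham levels were below 1 FPKM, so they could reach the filter only through the ligated libraries, and this count carries no weight of its own. The median log2 difference of all tested genes was 0.53, and relative to it the differences were 2.55 for Myh1, 3.39 for Myh4, 3.68 for Tnnt3 and 3.22 for Tnni2. After median-ratio scaling that median was 0.07, the share of higher calls among all calls was 70.4% in place of 93.6%, and after quantile normalization the share was 57.5%. All 4 genes were called higher under both scalings. In a fit with no filter, where 7.68% of 26754 genes were called higher, the same 4 isoform genes were called. In limma's voom fit on reads recovered from the FPKM values, where 24.2% of 19793 genes were called higher, 7 of the 8 isoform genes with enough reads were called higher and 0 lower.

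**Figure D1:**
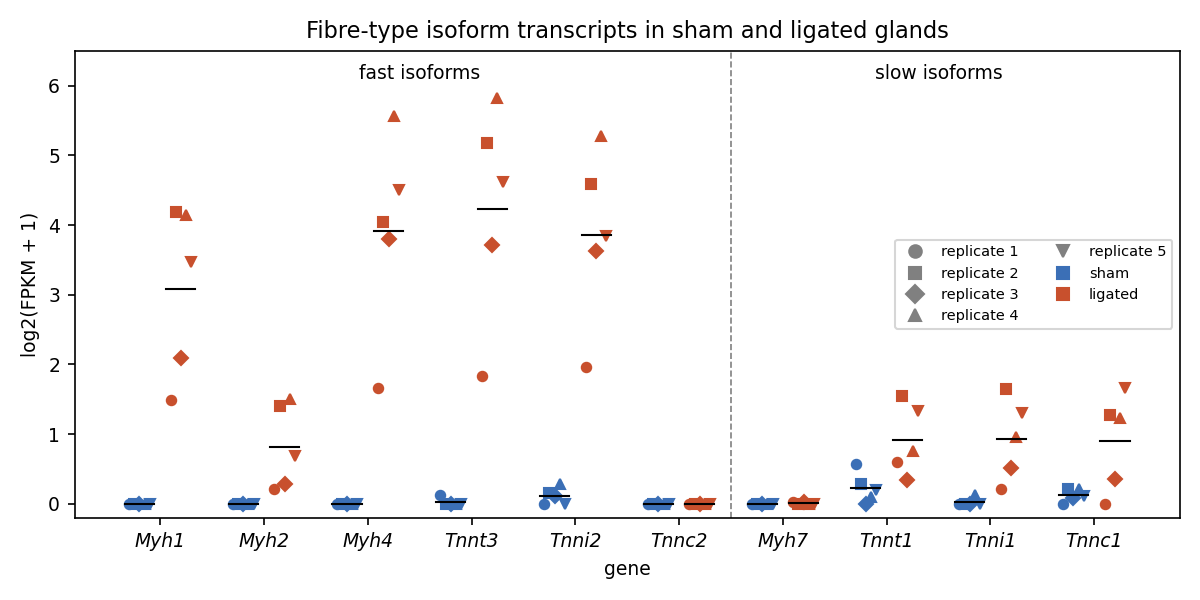
Level of the 10 isoform genes as log2(FPKM + 1), fast isoforms left and slow isoforms right of the dashed line, with 1 point per library (blue sham, orange ligated, marker shape for the replicate number) and a black bar at the mean of each group. The ligated libraries of Myh1, Myh4, Tnnt3 and Tnni2 lie above every sham library, the slow troponins stay below 2 on this scale, and Tnnc2 is at 0 in all 10 libraries.

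Among the 4 isoform genes of myosin heavy chains, the motor proteins of the thick filament, Myh4 had the highest ligated mean on the FPKM scale. Myh4, the motor of type 2B fibres, was listed at 0 in all 5 sham libraries and at 2.16, 15.4, 13.0, 46.4 and 21.7 FPKM in ligated 1 to 5. The groups did not overlap, ligated 1 was the lowest ligated library and ligated 4 the highest. The ligated mean was 19.7 ± 16.5 FPKM (SD, n = 5), resting on 183 to 4000 reads per library. On the log2(FPKM + 1) scale Myh4 rose by 3.91 ± 0.55 (SE; limma, adjusted p = 0.000429). With the sham libraries at 0, this log2 value depends on the pseudocount and is no fold change. Zero reads allow up to 0.0288 to 0.0412 FPKM of Myh4, the level of 3 reads, depending on the library.

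Myh1, the motor of type 2X fibres, was also listed at 0 in all 5 sham libraries. In ligated 1 to 5 it was at 1.80, 17.2, 3.27, 16.6 and 10.1 FPKM, from 161 to 1515 reads. Ligated 2 and 4 were high and nearly equal, ligated 1 and 3 were low, and the groups did not overlap. The ligated mean was 9.81 ± 7.22 FPKM (SD, n = 5), and Myh1 rose by 3.08 ± 0.48 on the log2(FPKM + 1) scale (SE; limma, adjusted p = 0.000676). For each of Myh1, Myh4, Tnnt3 and Tnni2 the exact two-sided permutation p was 0.00794, the smallest that 5 against 5 libraries can give.

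Myh2, the motor of type 2A fibres, stood far below both. It was at 0 in all sham libraries and at 0.159, 1.65, 0.220, 1.83 and 0.603 FPKM in ligated 1 to 5, from 16 to 187 reads. Ligated 2 and 4 were again the high libraries and the groups did not overlap. Myh2 missed the filter. Its exact permutation p was 0.00794, and in a limma fit with no filter its difference of 0.82 ± 0.25 on the log2(FPKM + 1) scale had an adjusted p of 0.0335, below the size asked of a call. By voom its difference was 6.79 with an adjusted p of 0.00169, a log2 value that depends on voom's own pseudocount because the sham libraries hold no read.

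Myh7, the motor of slow fibres and of the heart, was close to absent. Ligated 1 held 0.0165 FPKM and ligated 3 held 0.0173 FPKM, each from 2 reads, and the other 8 libraries were at 0. The groups overlapped at 0, and the exact permutation p was 0.444. Ligated 2, 4 and 5, which had the most Myh1, were thus among the libraries with no Myh7 read. In a library listed at 0, a count of 0 allows a level of up to 3 reads, which for Myh7 amount to 0.0201 to 0.0288 FPKM depending on the library.

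Within the 4 myosins, the fast genes took 99.6%, 100%, 99.9%, 100% and 100% of the summed FPKM in ligated 1 to 5. The split among the fast genes varied more. Myh4 took 52.2%, 45.0%, 78.7%, 71.5% and 67.0% of the summed FPKM of the 4 myosins in ligated 1 to 5, or 62.9% ± 13.9 (SD, n = 5). Myh1 took 34.1% ± 12.6 and Myh2 took 2.93% ± 1.42. The ratio of Myh4 to Myh1 was 1.20, 0.895, 3.97, 2.79 and 2.15 in ligated 1 to 5. Ligated 2 was the library in which Myh1 exceeded Myh4, and ligated 3 had the greatest excess of Myh4. These genes resemble each other in sequence: 25.4% of the windows of 50 bases in Myh1 transcripts, 22.9% in Myh2, 18.9% in Myh4 and 15.6% in Myh7 also occur in transcripts of another gene, while none of those of Tnnt3, Tnni2, Tnnc1 and Tnnc2 do. How the authors assigned reads that match several genes is not given in the sources used here, so the split carries that uncertainty. Myh1 also shares 8.11% of its exonic bases with Myhas, and Myh2 3.32% with 9430073C21Rik, both on the opposite strand. Myh7 overlaps the antisense gene Mhrt over 484 bases.

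**Figure D2:**
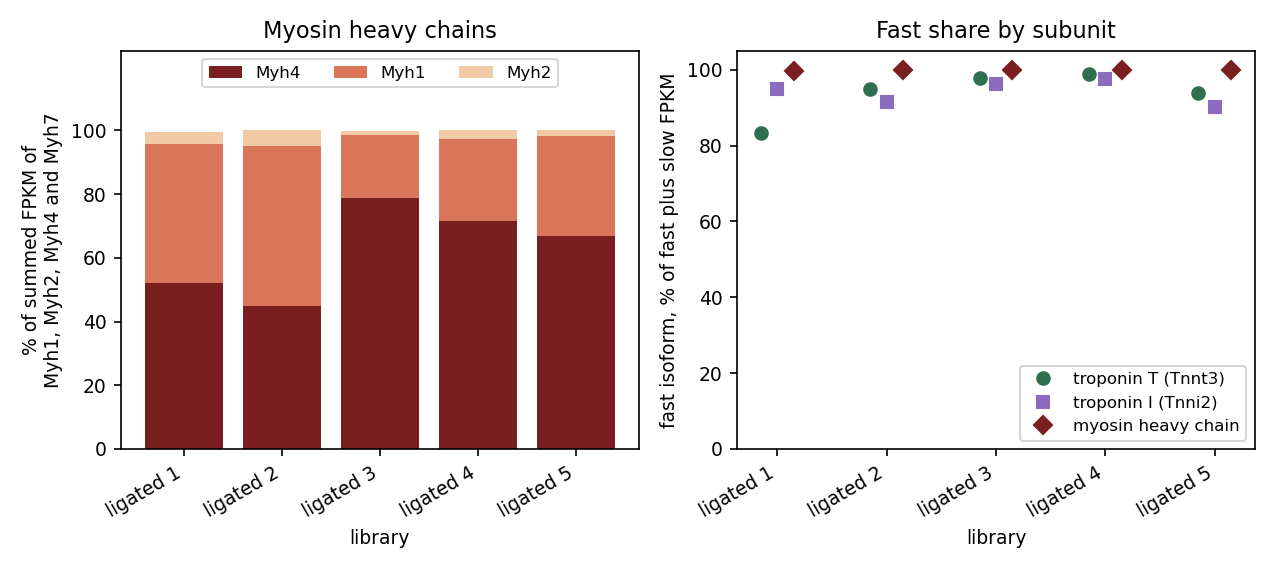
Left, stacked bars of Myh4, Myh1 and Myh2 as a percentage of the summed FPKM of the 4 myosin heavy chain genes in each of the 5 ligated libraries. Right, fast isoform as a percentage of fast plus slow FPKM for troponin T, troponin I and myosin heavy chain, 1 point per ligated library. The Myh4 part runs from 45.0% to 78.7%, and the fast shares from 83.2% to 100%.

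Troponin T ties the troponin complex to tropomyosin on the thin filament. Tnnt3, the fast isoform, was at 0.0977 FPKM in sham 1, from 2 reads, and at 0 in the other sham libraries. In ligated 1 to 5 it was at 2.56, 35.3, 12.1, 55.7 and 23.5 FPKM, from 57 to 1263 reads. The groups did not overlap, and the order of the ligated libraries was that of Tnni2 at both ends, with ligated 1 lowest and ligated 4 highest. The ligated mean was 25.8 ± 20.7 FPKM (SD, n = 5), and Tnnt3 rose by 4.21 ± 0.60 on the log2(FPKM + 1) scale (SE; limma, adjusted p = 0.000444).

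Tnnt1, the slow troponin T, was the isoform gene with the most sham signal. It was at 0.491, 0.224, 0, 0.0750 and 0.145 FPKM in sham 1 to 5 and at 0.516, 1.93, 0.271, 0.696 and 1.51 FPKM in ligated 1 to 5. The groups overlapped, because sham 1 was above ligated 3. The means were 0.187 ± 0.189 and 0.984 ± 0.704 FPKM (SD, n = 5 each), with an exact permutation p of 0.0159. In the limma fit with no filter the difference of 0.68 ± 0.23 on the log2(FPKM + 1) scale had an adjusted p of 0.0501, and by voom the difference was 2.79 with an adjusted p of 0.0248. Tnnt1 amounted to 20.2%, 5.46%, 2.24%, 1.25% and 6.42% of Tnnt3 in ligated 1 to 5. The share was highest in ligated 1, where Tnnt1 rested on 16 reads and stood close to sham 1.

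Troponin I holds the filament off until calcium arrives. Tnni2, the fast isoform, was at 0, 0.110, 0.0772, 0.221 and 0 FPKM in sham 1 to 5 and at 2.90, 22.9, 11.4, 37.7 and 13.3 FPKM in ligated 1 to 5. The groups did not overlap, and the lowest ligated library was again ligated 1. The ligated mean was 17.7 ± 13.3 FPKM (SD, n = 5), and Tnni2 rose by 3.75 ± 0.48 on the log2(FPKM + 1) scale (SE; limma, adjusted p = 0.000293).

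Tnni1, the slow isoform, was at 0.0918 FPKM in sham 4 and at 0 in the other sham libraries. In ligated 1 to 5 it was at 0.158, 2.13, 0.435, 0.950 and 1.47 FPKM, from 8, 99, 21, 49 and 70 reads. Tnni1 was the slow isoform gene whose groups did not overlap, and its highest library was ligated 2 and not ligated 4. Its exact permutation p was 0.00794, and in the limma fit with no filter the difference of 0.90 ± 0.24 on the log2(FPKM + 1) scale had an adjusted p of 0.0198, under the size asked of a call. By voom the difference was 5.52 with an adjusted p of 0.00263. Tnni1 amounted to 5.45%, 9.27%, 3.81%, 2.52% and 11.0% of Tnni2 in ligated 1 to 5.

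Troponin C is the calcium sensor of the complex. Tnnc1, the slow and cardiac isoform, was at 0, 0.158, 0.0555, 0.159 and 0.0768 FPKM in sham 1 to 5 and at 0, 1.41, 0.287, 1.34 and 2.18 FPKM in ligated 1 to 5. The groups overlapped because ligated 1 had no read, and the exact permutation p was 0.0556. The limma fit with no filter gave a difference of 0.78 ± 0.28 on the log2(FPKM + 1) scale with an adjusted p of 0.0668, and voom gave 2.35 with an adjusted p of 0.122. The highest library was ligated 5, from 30 reads.

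Tnnc2, the fast troponin C, was listed at 0 in all 10 libraries. The other fast isoform genes had 16 to 4000 reads in the same ligated libraries, and 3 reads of Tnnc2 would amount to 0.217 to 0.310 FPKM. In GENCODE M21, 592 of the 800 exonic bases of Tnnc2 (74%) overlap Ube2c, a cell division gene on the opposite strand, whose own level was 0.254 to 8.03 FPKM in sham and 1.66 to 11.5 FPKM in ligated libraries. A value of 0 in a table without counts can be a failed estimate, and the part of the overlap in the zeros was not tested. No fast share was therefore taken for troponin C. The fast share of troponin T was 83.2%, 94.8%, 97.8%, 98.8% and 94.0% in ligated 1 to 5, with a mean of 93.7% ± 6.20 (SD, n = 5). The fast share of troponin I was 94.8%, 91.5%, 96.3%, 97.5% and 90.1%, with a mean of 94.1% ± 3.17 (SD, n = 5). Tnnt3 and Tnni2, which lie near each other on chromosome 7, stood in a ratio of 0.884, 1.54, 1.06, 1.47 and 1.76, so the fast troponins were of like abundance. Beside the fast troponin I, Tnnc1 amounted to 0%, 6.15%, 2.51%, 3.55% and 16.3% of the Tnni2 level.

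Set side by side per library, Myh1, Myh4, Tnnt3 and Tnni2 were each above all 4 slow genes in 5 of 5 ligated libraries, on the FPKM scale. The summed level of the fast genes was 9.58, 92.6, 39.9, 158.3 and 69.2 FPKM in ligated 1 to 5, and that of the slow genes was 0.691, 5.47, 1.01, 2.99 and 5.15 FPKM. In sham 1 to 5 the fast sum was 0.0977, 0.11, 0.0772, 0.221 and 0 FPKM and the slow sum 0.491, 0.382, 0.0555, 0.325 and 0.222 FPKM. Outside sham 3 the sham libraries thus held less fast than slow signal, all of it from a few reads. The fast sum over the slow sum came to 13.9, 16.9, 39.5, 53.0 and 13.4 in ligated 1 to 5. Of the 10 genes, 6 had every ligated library above every sham library, 5 of them fast and 1 slow. Among all genes above 0 in a library 16.0% did so, and among the tested genes 30.2%.

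By their medians, the 3 slow troponins and the 5 fast genes above 0 were not spread over the ligated libraries in the same proportions. Ligated 4 held a median of 42.7% of the ligated total of the 5 fast genes above 0, but 18.5% of that of the 3 slow troponins. Ligated 2 held 27.4% and 39.2%, and ligated 5 held 18.2% and 30.6%. Ligated 1 held little of either, at 3.28% and 3.08%. Members departed from these medians. Fast Myh1 had slightly more of its total in ligated 2 (35.1%) than in ligated 4 (33.9%). Slow Tnnc1 had most in ligated 5 (41.7%), with 27.1% in ligated 2 and 25.7% in ligated 4. No test was made of these proportions, and the slow troponins rest on few reads. In a bulk sample, more muscle fibres and more RNA per fibre cannot be told apart.

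**Figure D3:**
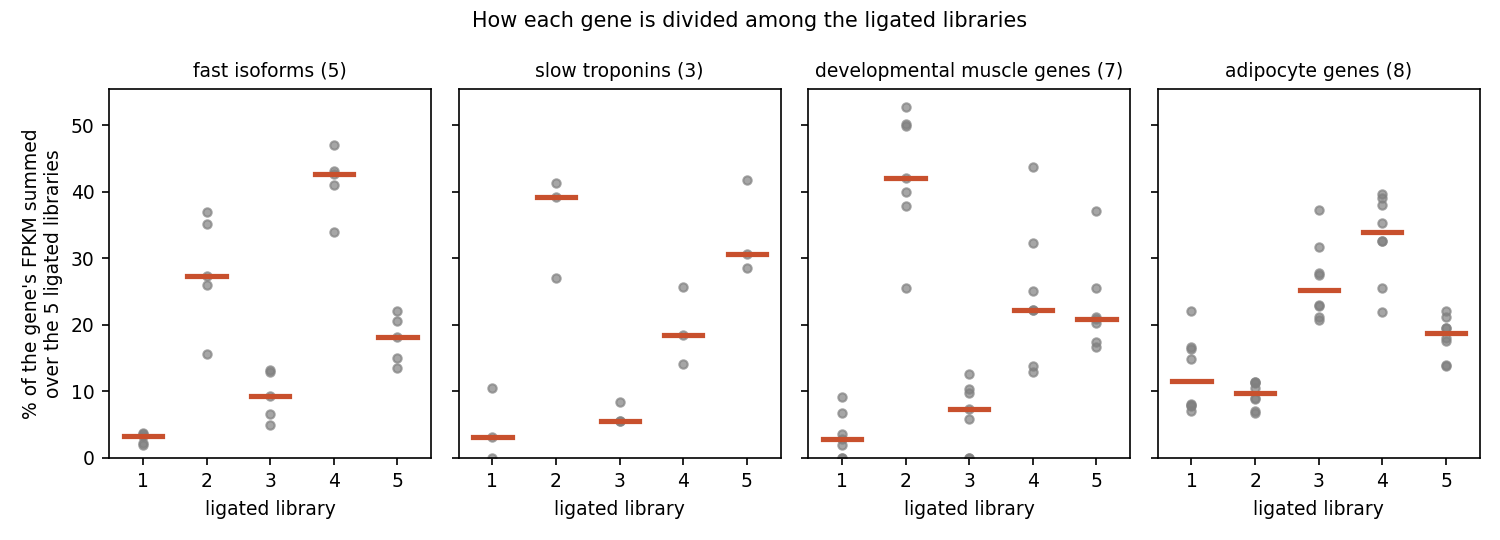
Percentage of each gene's FPKM, summed over the 5 ligated libraries, that came from each library, in 4 panels: fast isoforms, slow troponins, developmental muscle genes and adipocyte genes. Grey points are genes and orange bars are medians. The median of the fast isoforms peaks in ligated 4 (42.7%), of the slow troponins in ligated 2 (39.2%), of the developmental genes in ligated 2 (42.0%) and of the adipocyte genes in ligated 4 (34.0%). Not every gene of a panel peaks where its median does.

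Other genes of the sarcomere were read from lists of fibre type genes. Of 12 further fast fibre genes, 6 were tested and all 6 were called higher, with a median log2 difference of 4.22 against 0.53 for all genes tested. Atp2a1, the calcium pump of fast fibres, rose by 4.61 ± 0.63 on the log2(FPKM + 1) scale (SE; limma, adjusted p = 0.00038), from 0.0250 ± 0.0234 to 35.2 ± 27.4 FPKM (SD, n = 5 each). Myl1 and Mylpf, light chains of fast myosin, rose by 4.55 ± 0.62 and 4.36 ± 0.66. Pvalb, the calcium buffer parvalbumin of fast fibres, rose by 4.08 ± 0.64. The groups did not overlap for 10 of the 12 genes, against 16.0% of all genes above 0 in a library. As with the isoform genes, fast genes low in sham reached the filter through the ligated libraries.

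Of 10 further slow fibre genes, 3 were tested and 1 was called higher, with a median log2 difference of 0.17. With no filter 3 of the 10 were called higher, and voom called 5 of 8, against 12 of the 12 fast fibre genes in both. Over all genes these fits called 7.68% and 24.2% higher. The gene called in the filtered fit was Tpm3, a tropomyosin that is also made in many non-muscle cells, with means of 19.9 ± 9.92 FPKM (sham) and 52.8 ± 9.89 FPKM (ligated) (SD, n = 5 each; log2 difference 1.45 ± 0.26, limma adjusted p = 0.00146). After median-ratio scaling and after quantile normalization its difference was 0.89 (limma, adjusted p = 0.00794 and 0.0074), under the size asked of a call, and 0 slow genes were called. Atp2a2, the calcium pump of slow and non-muscle cells, differed by 0.17 (limma, adjusted p = 0.316), and Casq2, the slow calcium store protein, by 0.01 (limma, adjusted p = 0.969).

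Of the remaining slow genes, those named here were chosen after their values were seen. Myl2, the regulatory light chain of slow and cardiac muscle, was at 0 in 9 libraries and at 0.146 FPKM in ligated 1, from 4 reads. Myl3, the matching essential light chain, had 6 reads (0.205 FPKM) in ligated 4, 2 reads (0.0739 FPKM) in ligated 5 and none elsewhere. Mybpc1, the slow myosin-binding protein C, was at 0.786, 7.38, 2.24, 10.1 and 4.20 FPKM in ligated 1 to 5 against at most 0.0511 FPKM in sham. Its ligated mean of 4.93 ± 3.79 FPKM (SD, n = 5) stood beside 4.04 ± 2.86 FPKM for Mybpc2, the fast counterpart, and Mybpc1 was called higher with no filter (limma, adjusted p = 0.00553) and by voom (adjusted p = 0.00365). Of its ligated total, 40.8% was in ligated 4 and 29.9% in ligated 2, near the medians of the fast isoforms (42.7% and 27.4%). From which fibre type its transcripts came was not tested. Myoz2, a Z-disc protein of slow fibres, was at 0.0416, 0.791, 0.0872, 0.387 and 0.110 FPKM in ligated 1 to 5. Csrp3, a muscle LIM protein, was at 0, 4.23, 0.670, 2.12 and 1.27 FPKM in ligated 1 to 5. Myoz2 and Csrp3 were at 0 in every sham library, and voom called both higher (adjusted p = 0.00443 and 0.0332). Csrp3 was also called higher with no filter (limma, adjusted p = 0.0357). Ankrd2, at means of 0.155 FPKM in sham and 1.26 FPKM in ligated libraries, was called higher by voom (adjusted p = 0.0145). Of the 10 slow genes, 3 had no overlap between groups, Mybpc1, Myoz2 and Tpm3, against 16.0% of all genes above 0 in a library.

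**Figure D4:**
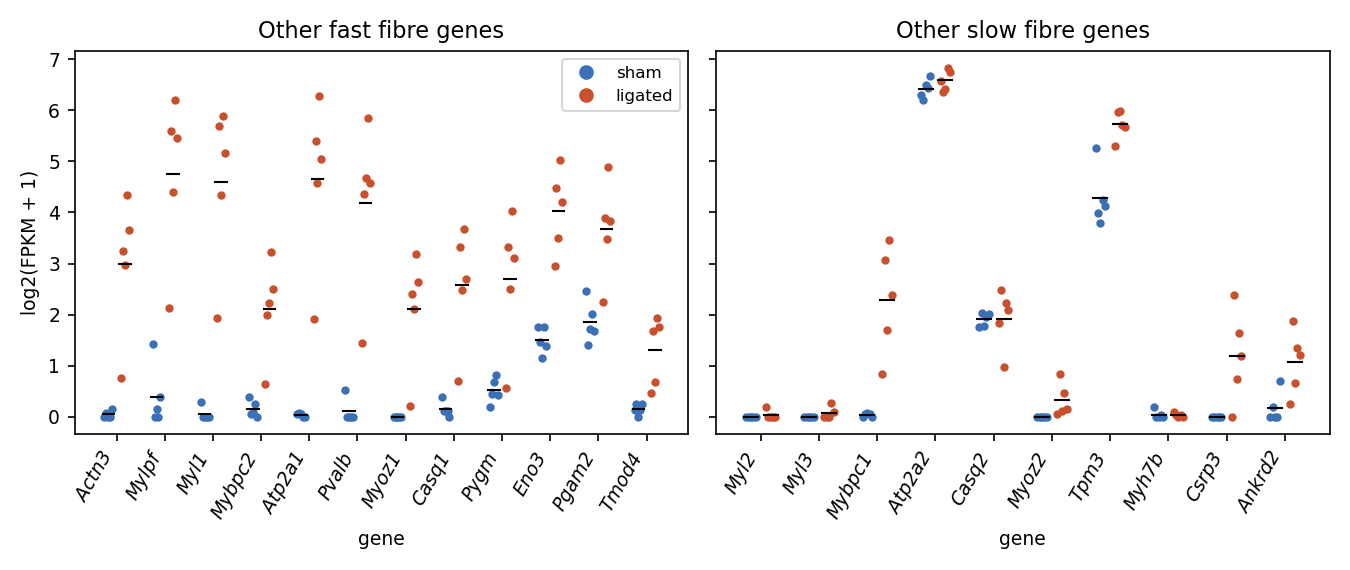
Level of the 12 other fast fibre genes (left) and the 10 other slow fibre genes (right) as log2(FPKM + 1), with 1 point per library (blue sham, orange ligated) and a black bar at each group mean. The fast genes separate by group for 10 of 12, the slow genes for 3 of 10 (Mybpc1, Myoz2 and Tpm3), and Myl2 and Myl3 are near 0 in every library.

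Of 7 genes of oxidative metabolism in muscle, 5 were tested and 3 were called higher, Cox8b (log2 difference 4.00 ± 0.54), Fabp3, a fatty acid carrier (2.82 ± 0.37), and Cox6a2 (2.31 ± 0.39). Fabp3 was below 1 FPKM in every sham library, so it could reach the filter only through the ligated ones. The other tested genes were not called: Cox7a1, a respiratory chain subunit, differed by 1.37 ± 0.69 (SE) with overlapping groups and missed the threshold on the adjusted p, and Ppargc1a, a regulator of mitochondrial genes, by -0.25 (limma, adjusted p = 0.0972). With no filter and by voom, 5 of the 7 were called higher, against 7.68% and 24.2% of all genes. Mb, the oxygen store myoglobin, averaged 0.0901 FPKM over the sham and 6.55 ± 4.98 FPKM over the ligated libraries (SD, n = 5). Some of these genes are also made by brown adipocytes, and adipocyte genes were higher in the same glands, with the values further on. Their part in these values was not tested.

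Of 17 sarcomere genes common to both fibre types, 5 were tested and 4 were called higher (8 with no filter, 16 by voom). The groups did not overlap for 15 of the 17. Over all genes, 17.1% were called higher (7.68% with no filter, 24.2% by voom). Of all genes above 0 in a library, 16.0% had no overlap. Acta1, the actin of skeletal muscle, was at 14.9, 279.8, 122.4, 382.7 and 179.5 FPKM in ligated 1 to 5, against a mean of 2.05 ± 0.679 FPKM in sham (SD, n = 5), and rose by 5.44 ± 0.70 on the log2(FPKM + 1) scale (SE; limma, adjusted p = 0.000291). Ckm, the muscle creatine kinase, rose by 3.27 ± 0.55, Des, the intermediate filament desmin, by 3.24 ± 0.52, and Tcap, a protein of the Z-disc, by 3.03 ± 0.48. Ckm and Tcap were below 1 FPKM in every sham library, so they could reach the filter only through the ligated ones. Tnnt3 amounted to 17.2%, 12.6%, 9.86%, 14.5% and 13.1% of Acta1 in ligated 1 to 5, a narrow range beside the wide range of the levels. Myh4 amounted to 14.5%, 5.51%, 10.6%, 12.1% and 12.1% of Acta1, lowest in ligated 2. Against Adipoq, the hormone of fat cells, Tnnt3 amounted to 7.25%, 159.7%, 27.5%, 80.5% and 56.7%.

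Markers of other tissues were read beside these. All 8 adipocyte genes were called higher, with summed levels of 1.35 to 19.5 FPKM in sham and 250.2 to 920.6 FPKM in ligated libraries, and 0 of the 8 at 0 in all. Adipoq, Plin1, Lep and Plin4 were below 1 FPKM in every sham library. As with the isoform genes, they could reach the filter only through the ligated libraries. Adipoq rose by 5.05 ± 0.27 on the log2(FPKM + 1) scale and stood at 35.3, 22.1, 43.8, 69.2 and 41.4 FPKM in ligated 1 to 5, so ligated 2, the second highest library for Tnnt3, was the lowest for it. Of 8 smooth muscle genes 7 were tested and 0 were called in limma (1 called by voom), with a median log2 difference of 0.15. Synpo2 passed the adjusted p (limma, 0.00675) with a log2 difference of 0.51, under the size asked of a call. Acta2, the smooth muscle actin, differed by 0.19 ± 0.23 (limma, adjusted p = 0.469). Of 6 myoepithelial genes 5 were tested and 0 were called in limma, and voom called 1. In limma 4 had an unadjusted p under 0.05, with log2 differences below 1. Krt5, Krt14 and Trp63 also passed the adjusted p (limma, 0.0126, 0.0428 and 0.0108). Their log2 differences of 0.86, 0.91 and 0.59 were under the size asked of a call. Krt17 differed by 0.80 (limma, adjusted p = 0.0575). Of 6 cardiac genes 0 were tested in limma, and voom called 1 of 4 higher, against 24.2% of all genes. It was Ryr2, at 0.0262 to 0.104 FPKM in ligated libraries and at most 0.0322 FPKM in sham (voom, log2 difference 2.96, adjusted p = 0.017). Tnni3, the highest of the list, averaged 0.343 FPKM in sham and 0.553 FPKM in ligated libraries, with overlapping groups. Nppa and Myl7, which define atrial muscle, were at 0 in all libraries. The summed level of the 6 genes was 0.107 to 0.504 FPKM in sham and 0.245 to 1.23 FPKM in ligated libraries. Of 10 other myosin heavy chain genes 4 were tested and 2 were called higher, Myh9 (1.64 ± 0.26) and Myh10 (1.08 ± 0.16), which are motors of non-muscle cells. Myh10 lost its call without ligated 2 (0.97), without the 4 parotid-bearing libraries (0.97), and after either median-ratio scaling or quantile normalization. The part of adipocyte transcripts in the isoform values was not tested.

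All other tested genes were ranked by how closely they followed the summed isoform genes across the 10 libraries, as deviations from the group means of log2(FPKM + 1). Among the highest were Dock5 (Pearson r = 0.993), Frrs1 (0.981), Hspb6 (0.981), Myl1 (0.980), Atp2a1 (0.980), Eps8 (0.970) and Ogn (0.968). In sham the fast sum was at most 0.221 FPKM and the slow sum at most 0.491 FPKM, so the sham deviations of the isoform sum are small. The correlation therefore rests mostly on the 5 ligated libraries, and the genes named are the extremes of a long ranking. The points share the library depth, and the correlation is given as a description with no p. Of the genes named, Myl1 and Atp2a1 belong to a fast fibre list.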

How the data were processed

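RNA from 5 sham and 5 ligated glands was sequenced, and the authors deposited their FPKM values of 55291 genes, a column for each library. Per the submitters' processing notes the build was GRCm38 (mm10). For aligner, counter and annotation the sources used here give nothing. The authors' FPKM sums differ between libraries, from 337121 to 604875. Multiplying each FPKM by the merged exon length in GENCODE M21 gave whole multiples of 1 step per library for 98.3% to 98.4% of low values (tolerance 0.01 read), from which read numbers and depth were taken. Whether both mates of a pair were counted is not known and was not tested. Even numbers made up 67.0% (ligated 1) to 75.2% (sham 2) of the recovered read numbers. If both mates were counted, the read numbers exceed the fragments and the read floors are too low. Read floors cover counting error only.

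Genes reaching 1 FPKM in 5 or more of the 10 libraries were tested with limma 3.58.1 in R 4.3.3 on log2(FPKM + 1), with a trend, two-sided, and Benjamini-Hochberg adjustment over all 11856. A gene was called at adjusted p under 0.05 and a log2 difference of at least 1. The pseudocount understates changes of low genes. Isoform genes that missed the filter were compared by an exact two-sided permutation test with Python 3.11.15 and SciPy 1.17.1. P-values measure the spread between mice. The isoform genes and the lists were chosen with earlier results of these data known, so no p was adjusted over them alone. The text names all 10 isoform genes, up to 4 called genes of each list with the largest differences or the highest gene where none was called, and the 8 genes most like the isoform sum, of which some are not reported here. Other genes were chosen after their values were seen. The fit was tested on simulated data. Alternatives were other pseudocounts, filters, scalings, a replicate block, leaving out libraries, and limma's voom on the recovered reads. Voom and the exclusion of the lymph node-bearing libraries were chosen after seeing the data.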

Additional observations from a re-analysis of the deposited data

Results flagged for a closer look

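Within a group of 5 libraries, a single value that stands apart by Dixon's criterion is listed here, 16 of 93 groups of values examined, where chance gives about 1 in 20 groups. That rate is for independent, normally spread values, which these FPKM values are not, so no excess is read from the count. For Tnnt3, Tnni1, Myl1, Pvalb and Fabp3 the other 4 sham libraries were at 0, so any library with reads had to stand apart. The myosin share in ligated 1 rests on 2 reads of Myh7. In ligated 1 the fast share of the myosins was 99.6%, the lowest, and Tnnt1 was 20.2% of Tnnt3, the highest of the 5. In sham 1, Tnnt3 was 0.0977 FPKM, Myl1 0.224 FPKM, Mylpf 1.67 FPKM, Pvalb 0.446 FPKM, Tpm3 37.3 FPKM and Cox6a2 2.27 FPKM. In sham 1 also, Des was 8.15 FPKM, Mef2c 6.13 FPKM, Cidec 1.58 FPKM and Ccl21a 233.9 FPKM. In sham 4, Tnni1 was 0.0918 FPKM, Fabp3 0.401 FPKM and Spdef 108.3 FPKM. In sham 5, Ckm was 0.494 FPKM. Each was the highest of the 5 sham libraries for its gene.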

How the results depend on the processing

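Myh1, Myh4, Tnnt3 and Tnni2 were called higher in every alternative in which they were tested. At a filter of 5 FPKM none of the isoform genes passed, leaving 0 called and 1166 genes higher in all. Voom on recovered reads, chosen after seeing the data, called 7 isoform genes, 4788 genes higher and 308 lower. Rescaling to equal FPKM sums gave 5464 genes higher and 65 lower. Median-ratio scaling gave 933 and 393, and quantile normalization 689 and 509. Without the 4 parotid-bearing libraries 79 genes were lower. Leaving out 1 library gave 1725 to 2732 genes higher and 102 to 202 lower, with 4 isoform genes called throughout. Replicate numbers are not said to pair mice. Between libraries of the same number, correlations of deviations ran from -0.378 to 0.577. Sham 4 and 5 matched best with the ligated library of their own number and sham 1 to 3 did not, which leaves pairing undecided. With the numbers as a replicate block 4 isoform genes, 2082 genes higher and 121 lower were called. Of 600 counts over the lists, 62 moved by more than 1.5 times. Depth limits the slow genes, which rest on few reads.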

Other observations

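The 7 developmental and regenerating muscle genes summed to 0.718 to 1.05 FPKM in sham and 1.38 to 13.6 FPKM in ligated libraries. Of 7 listed genes 0 reached the filter of the limma test, voom on recovered reads called 4 of 7 higher, and 3 had no overlap between groups, Myh3, Myh8 and Myl4. Over all genes voom called 24.2% higher, and 16.0% of those above 0 in a library had no overlap. With no filter, limma called Actc1 and Myl4 higher (adjusted p = 0.0134 and 0.00813) and none of the other listed genes. Myh3, the embryonic myosin, was at 0.0704, 1.33, 0.246, 0.346 and 0.523 FPKM in ligated 1 to 5, and Myh8, the neonatal myosin, at 0.0846, 0.960, 0.140, 0.604 and 0.616 FPKM. Together they took 3.40% ± 1.82 of the summed FPKM of 6 sarcomeric myosins in ligated libraries (SD, n = 5). Mymk, a factor of myoblast fusion, was at 0, 1.43, 0, 0.923 and 0.500 FPKM, and Chrng, the embryonic receptor subunit, at 0, 0.390, 0, 0.101 and 0.290 FPKM in ligated 1 to 5. Ligated 2 was the highest library for Myh3, Myh8, Mymk and Chrng alike. Actc1, the cardiac and embryonic actin, averaged 0.0980 FPKM over the sham and 2.64 ± 1.95 FPKM over the ligated libraries (SD, n = 5). Myog, the myogenic factor myogenin, was at 0 in sham and at 0.190, 2.79, 0.399, 1.54 and 1.41 FPKM in ligated 1 to 5. With no filter it was called higher (limma, adjusted p = 0.0199).

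Of 8 myogenic factors 2 were tested and 1 was called, Mef2c, with a log2 difference of 1.24 ± 0.48 (limma, adjusted p = 0.0431). The call was lost with no filter, median-ratio scaling, quantile normalization, the replicate block, and without any of sham 2 to 5 or ligated 1 to 3 (adjusted p 0.0603 to 0.101 when 1 of these was left out). Mef2c stood at 6.13 FPKM in sham 1 and at 3.1, 5.7 and 6.6 FPKM in ligated 1 to 3, the lymph node-bearing libraries. In sham 2 to 5 it was at 0.220 to 0.570 FPKM, and in ligated 4 and 5 at 1.8 and 2.4 FPKM. The part of lymph node transcripts in the Mef2c values was not tested. Of 8 genes of the neuromuscular junction and atrophy 2 were tested and 0 were called by limma (1 at an unadjusted p under 0.05). Voom called 3 of 8 higher, against 24.2% of all genes. Chrnb1, a subunit of the acetylcholine receptor, differed by 0.95 ± 0.28 (limma, adjusted p = 0.0159).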
